A study of Oryza sativa with 9 samples.

Results

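The Aux/IAA repressors and the auxin response factors (ARFs) of rice were described side by side in seedlings under osmotic stress. They were taken from a fixed list of 54 locus numbers, 29 for Aux/IAA genes and 25 for ARF genes, and 50 of them (26 and 24) were found among the 34119 genes of the deposited table. LOC_Os01g48450, LOC_Os11g11420, LOC_Os11g11430 and LOC_Os07g08520 were not analysed here. Seedlings 14 days old, grown on half-strength solid medium and then in liquid medium, were placed for 3 h in 20% PEG8000, a polymer that withdraws water from roots. The wild type was NIP (NIP_PEG), and the other genotype was the single line SDG708-YFP-1, which overexpresses SDG708, a SET-domain protein (708OE_PEG). Each genotype had 3 libraries of polyadenylated seedling RNA, with no organ named,, and every library came from PEG-treated plants, so the comparison addresses the genotypes under PEG and not the response to it.

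Auxin acts by removing repressors. ARF proteins bind auxin response elements in promoters, and Aux/IAA proteins bind the ARFs and recruit TOPLESS-type corepressors. When auxin is perceived by an F-box receptor, the Aux/IAA protein is ubiquitinated and degraded, and the ARF is freed. ARFs with a glutamine-rich middle region act as activators in transient assays, and most other ARFs act as repressors there. Many Aux/IAA genes are themselves induced by auxin. Some ARF transcripts are cleaved under the direction of small RNAs, which in rice are miR160, miR167 and the trans-acting siRNAs made from TAS3 transcripts.

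Levels are FPKM, read counts scaled to gene length and library size, as deposited. Each value is a whole number of reads times a constant, and the gene lengths this implies lay within 10% of the whole RefSeq gene span, introns included, for 43 of the 50 members, so a level here is per kilobase of gene span. The implied library sizes were 17.4, 24.9 and 20.0 M reads for NIP_PEG and 13.3, 13.6 and 18.1 M for 708OE_PEG. Genes were tested with limma on log2(FPKM + 1) where at least 3 of the 6 libraries reached an FPKM of 1, which left 20 Aux/IAA and 22 ARF genes among 18569 genes. Log2 fold changes are of overexpression over wild type on that scale, which understates the change of low genes, and p-values were adjusted by the Benjamini-Hochberg method over all 18569 genes. No label ties the repeats to separate cultures, and the p-values therefore describe the spread among these libraries, which may be technical. Every wild-type repeat ran on 2 lanes, whereas no lane is labelled for the other genotype, so lane and genotype cannot be told apart. The level of SDG708 itself was not analysed here, and the genotype labels were taken as given.

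More ARF genes fell than rose, while Aux/IAA genes moved in both directions. Of the 22 tested ARF genes, 9 fell in the overexpression line, 1 rose and 12 did not pass. Of the 20 tested Aux/IAA genes, 4 fell, 3 rose and 13 did not pass. Over all tested genes, 34.3% passed in either direction, 20.0% as lower and 14.3% as higher, so the Aux/IAA counts lay near that background, while 40.9% of the ARF genes were lower. Among tested genes with a gene span of 5 to 9 kb, a range near that of most ARF genes, 28.4% were lower and 7.30% higher. The median log2 fold change was -0.16 over the tested ARF genes. It was -0.07 over the Aux/IAA genes, with a range from -0.71 to 0.38, and -0.04 over all tested genes. Over the tested genes of 5 to 9 kb it was -0.12. A log2 fold change below 0 was found for 20 of 22 ARF genes, 13 of 20 Aux/IAA genes and 56.3% of all tested genes. In 14 ARF genes every overexpression library lay below every wild-type library, and in 1 every overexpression library lay above. The corresponding numbers were 7 and 6 for the Aux/IAA genes, against 30.7% and 20.0% of all tested genes, or 50.6% for either direction. A difference between the families was not tested. In bulk seedling RNA, fewer cells of a type and less RNA per cell cannot be told apart.

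**Figure D1:**
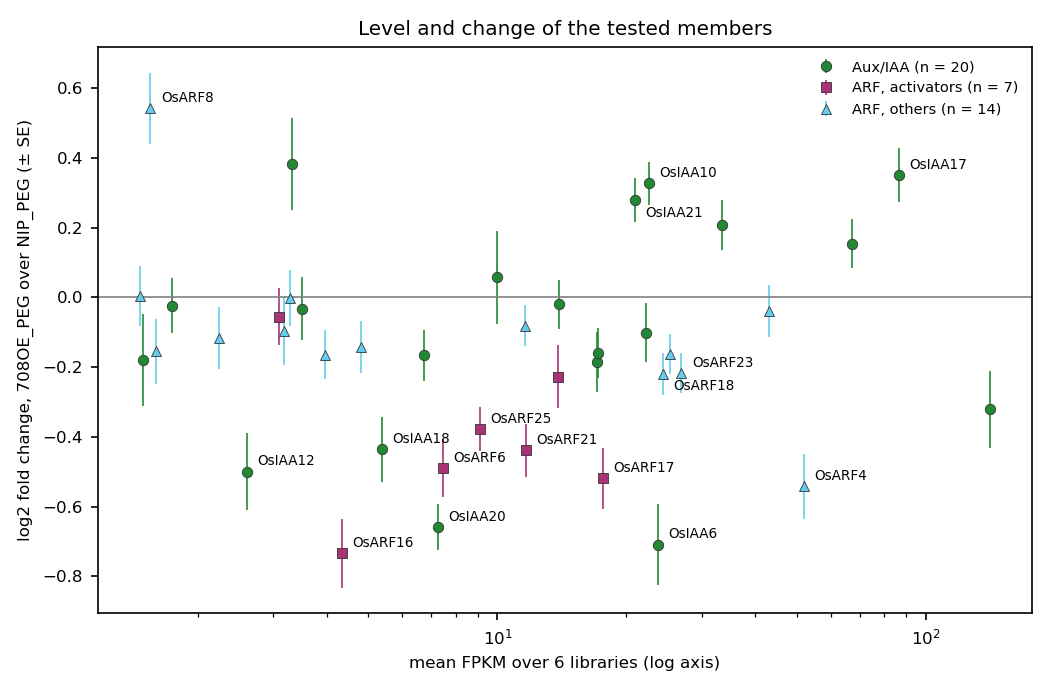
Log2 fold change of the overexpression line over the wild type (y axis, with SE) against the mean FPKM over 6 libraries (log x axis) for 41 tested members, with the 16 of them that passed named. The activator ARFs lie below 0, with OsARF16 at -0.73, while Aux/IAA genes lie on either side of 0.

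The activator ARFs held most of the lower calls. The glutamine-rich class has 9 ARF genes in rice, of which 8 were tested: 6 fell, none rose, and OsARF5 and OsARF12 did not pass. Their median log2 fold change was -0.46. Over all tested genes 20.0% were lower, with a median of -0.04. Among tested genes with a span of 5 to 9 kb, 28.4% were lower, with a median of -0.12. Of the 14 other ARF genes tested, 3 fell, 1 rose and 10 did not pass, with a median of -0.13. The remaining activator, OsARF11, was too low to test, with mean levels of 0.245 ± 0.0698 in NIP_PEG and 0.165 ± 0.0696 in 708OE_PEG (SD, n = 3 each).

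OsARF21 (LOC_Os08g40900, chromosome 8), an activator, had FPKM levels of 14.2, 12.8 and 13.7 in NIP_PEG and 9.07, 9.65 and 10.5 in 708OE_PEG. The overexpression libraries were all below the wild type, and the groups did not overlap. It fell by 0.44 on the log2 scale (SE 0.08, limma adjusted p = 0.004). OsARF16 (LOC_Os06g09660, chromosome 6), known in rice for a part in phosphate and iron responses, had levels of 6.60, 4.86 and 5.60 in NIP_PEG and 3.02, 3.04 and 2.94 in 708OE_PEG. The 3 overexpression libraries were nearly equal, and each lay below the lowest wild-type library. The log2 fold change was -0.73 ± 0.10 (SE, limma adjusted p = 0.0014), and the mean was 0.527 times that of the wild type.

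The miR167-targeted genes are the 4 relatives of Arabidopsis ARF6 and ARF8. OsARF17 (LOC_Os06g46410, chromosome 6), the highest activator by mean FPKM, had levels of 23.5, 19.1 and 20.4 in NIP_PEG and 15.03, 14.5 and 13.4 in 708OE_PEG. OsARF6 (LOC_Os02g06910, chromosome 2) had levels of 9.65, 8.04 and 9.03 against 6.41, 6.02 and 5.72. OsARF25 (LOC_Os12g41950, chromosome 12) had levels of 10.4, 9.94 and 10.8 against 7.93, 7.69 and 7.71. In these 3 genes every overexpression library was below every wild-type library. They fell by 0.52, 0.49 and 0.38 on the log2 scale (SE 0.09, 0.08 and 0.06), with limma adjusted p-values of 0.0036, 0.0035 and 0.0036. The other miR167-targeted gene, OsARF12, known in rice for root elongation, had means of 3.18 ± 0.256 and 3.02 ± 0.229 (SD, n = 3 each), its groups overlapped, and it missed the threshold (log2 fold change -0.05, limma adjusted p = 0.63). OsARF5, an activator that is not a target of miR167, had levels of 16.8, 13.1 and 15.2 against 12.3, 12.7 and 12.95. Its groups were apart by little, and it missed the threshold (log2 fold change -0.23, limma adjusted p = 0.084).

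**Figure D2:**
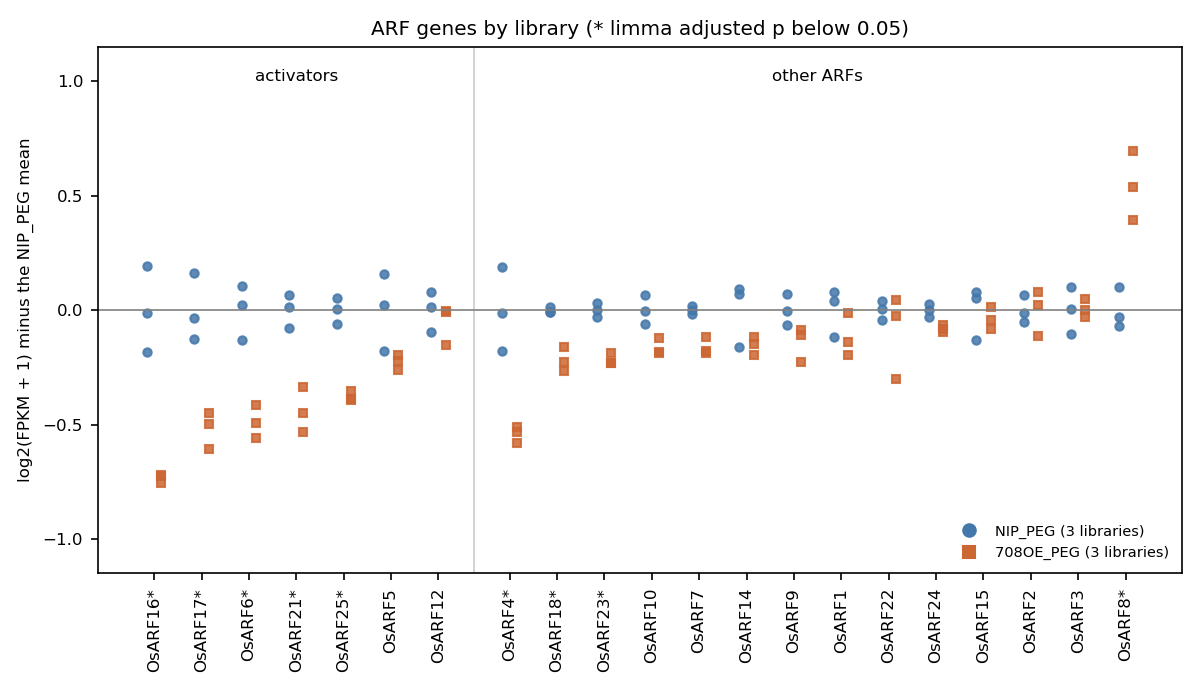
Tested ARF genes by library, as log2(FPKM + 1) minus the mean of the 3 wild-type libraries (circles, wild type; squares, overexpression line). Among the activators on the left, 6 of 7 have all 3 squares below all circles, and OsARF8 at the far right has all 3 squares above. Over all tested genes, 30.7% lay wholly below and 20.0% wholly above.

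Outside the activators, OsARF4 (LOC_Os01g70270, chromosome 1), the highest ARF gene by mean FPKM and known in rice for a part in grain size, had levels of 70.1, 54.1 and 60.9 in NIP_PEG and 42.1, 42.8 and 40.7 in 708OE_PEG. The overexpression libraries were nearly equal, and the lowest wild-type library still lay above them. OsARF4 fell by 0.54 on the log2 scale (SE 0.09, limma adjusted p = 0.0039). The second gene by level, OsARF15, stayed between 39.6 and 45.9 in the wild type and between 41.1 and 43.8 in the overexpression line. Its groups overlapped, and it missed the threshold (log2 fold change -0.04, limma adjusted p = 0.72).

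OsARF8 (LOC_Os02g41800, chromosome 2) was the one ARF gene that rose. Its levels were low, at 0.971, 1.22 and 1.03 in NIP_PEG and 1.72, 2.01 and 2.36 in 708OE_PEG, from 45 to 114 reads a library. The overexpression libraries were spread but all above the wild type. The mean was 1.89 times that of the wild type, with a fold change of 0.54 on the log2 scale (SE 0.10, limma adjusted p = 0.0055). Only 2 wild-type libraries reached the FPKM minimum of 1, so the gene was tested partly through the group where it is high. It also passed with no minimum.

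OsARF8 is 1 of 4 ARF genes targeted by miR160, and the 4 did not move together. OsARF18 (LOC_Os06g47150, chromosome 6) had levels of 26.1, 26.5 and 26.1 in NIP_PEG and 21.6, 23.3 and 22.3 in 708OE_PEG, with no overlap, and fell by 0.22 on the log2 scale (SE 0.06, limma adjusted p = 0.024). OsARF10 (log2 fold change -0.16, limma adjusted p = 0.11) and OsARF22 (-0.09, limma adjusted p = 0.49) did not pass. The 4 genes targeted by TAS3-derived siRNAs, the ETTIN and ARF4 relatives OsARF2, OsARF3, OsARF14 and OsARF15, gave no call, all 4 had overlapping groups, and their median log2 fold change was -0.02. The small RNAs themselves were not measured, and the target assignments are background knowledge.

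OsARF23 (LOC_Os11g32110, chromosome 11) was the last of the lower calls, with levels of 28.3, 29.0 and 29.6 in NIP_PEG and 24.5, 25.3 and 24.5 in 708OE_PEG. The groups were narrow and apart, and it fell by 0.22 on the log2 scale (SE 0.06, limma adjusted p = 0.022). The calls of OsARF18 and OsARF23 rested on small differences: both were lost with each library scaled to its reads in the table (limma adjusted p = 0.173 and 0.164), after removal of the length trend (0.0910 and 0.242), and without NIP_PEG replicate 3 or any 1 overexpression replicate (up to 0.103 and 0.0877). OsARF7 lay between 26.4 and 27.1 in the wild type and between 23.4 and 24.6 in the overexpression line, a change of similar size that missed the threshold (log2 fold change -0.16, limma adjusted p = 0.062). OsARF1, OsARF9 and OsARF24 did not pass either, with log2 fold changes from -0.14 to -0.08. OsARF13 was too low to test, with mean levels of 0.253 ± 0.114 and 0.140 ± 0.0540 (SD, n = 3 each).

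Levels of the Aux/IAA genes ran from 0 to a mean FPKM of 141, and the 3 highest genes, OsIAA24, OsIAA17 and OsIAA13, held 57.4% ± 1.603 (SD, n = 3) of the summed level in NIP_PEG and 58.3% ± 0.154 (SD, n = 3) in 708OE_PEG. Of the 11 genes with a mean FPKM of at least 10, a split chosen after the values were seen, 3 rose and 1 fell. Of the 9 tested genes below that level, none rose and 3 fell. Over all tested genes, 14.3% were higher and 20.0% lower. In a separate fit of the 10042 genes with a mean FPKM of at least 5, a cut below 10, 1592 were higher and 3137 lower. That fit adjusted its p-values over those genes alone, and of its 15 Aux/IAA genes 4 were higher and 4 lower. A dependence of direction on level was not tested.

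OsIAA6 (LOC_Os01g53880, chromosome 1), linked in rice to drought tolerance and tiller outgrowth, had levels of 35.4, 24.7 and 29.2 in NIP_PEG and 17.1, 17.96 and 17.8 in 708OE_PEG. The wild-type libraries were spread, and the overexpression libraries lay together below them. The fold change of -0.71 on the log2 scale (SE 0.12, limma adjusted p = 0.0032) was the largest fall among the tested genes of the family. The mean of OsIAA6 was 0.592 times that of the wild type. OsIAA20 (LOC_Os06g07040, chromosome 6), linked in rice to tolerance of drought and salt, had levels of 9.66, 8.64 and 9.13 against 5.42, 5.45 and 5.38. Both groups were tight and far apart, and OsIAA20 had the lowest limma adjusted p of all members, 0.00036, at a log2 fold change of -0.66 ± 0.07 (SE). Its mean was 0.593 times that of the wild type, so the order of the 2 genes depends on the pseudocount. With a pseudocount of 0.1 the log2 fold change was -0.7422 for OsIAA20 and -0.7367 for OsIAA6.

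The other falls were in lower genes. OsIAA18 (LOC_Os05g44810, chromosome 5), also linked in rice to salt and drought tolerance, had levels of 7.22, 5.69 and 6.12 in NIP_PEG and 4.73, 4.10 and 4.43 in 708OE_PEG. OsIAA12 (LOC_Os03g43410, chromosome 3) had levels of 3.57, 2.58 and 3.52 against 1.78, 2.02 and 2.11, from 31 to 92 reads a library. Neither gene's groups overlapped. They fell by 0.43 and 0.50 on the log2 scale (SE 0.09 and 0.11), with limma adjusted p-values of 0.0097 and 0.011. OsIAA11, whose locus number is next to that of OsIAA12 and which acts in lateral root formation in rice, had 0 to 5 reads a library and was not tested.

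There were 3 genes that rose. OsIAA17 (LOC_Os05g14180, chromosome 5), the second gene of the family by level, had levels of 69.0, 82.9 and 76.1 in NIP_PEG and 96.2, 94.98 and 99.8 in 708OE_PEG. OsIAA10 (LOC_Os02g57250, chromosome 2) had levels of 19.1, 20.9 and 19.6 against 24.7, 25.4 and 25.5. OsIAA21 (LOC_Os06g22870, chromosome 6) had levels of 18.6, 18.7 and 19.2 against 22.6, 22.2 and 24.4. In each the overexpression libraries were above all wild-type libraries, by 1.28, 1.27 and 1.23 times in the means. The log2 fold changes were 0.35 ± 0.08, 0.33 ± 0.06 and 0.28 ± 0.06 (SE), with limma adjusted p-values of 0.011, 0.0056 and 0.012. The call of OsIAA21 was lost without 708OE_PEG replicate 3 (limma adjusted p = 0.056).

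The highest gene of the family, OsIAA24 (LOC_Os07g08460, chromosome 7), had levels of 185, 134 and 152 in NIP_PEG and 126, 126 and 121 in 708OE_PEG. The groups did not overlap, but the wild-type libraries were spread, and the gene missed the threshold (log2 fold change -0.32 ± 0.11, SE, limma adjusted p = 0.055). Without NIP_PEG replicate 1, the highest library, its log2 fold change shrank to -0.20 while its limma adjusted p was 0.0498. Without NIP_PEG replicate 2 these were -0.43 and 0.0088. OsIAA13, known in rice for lateral root initiation, had levels of 58.5, 67.2 and 65.3 against 71.5, 71.9 and 69.2 and missed the threshold (log2 fold change 0.15, limma adjusted p = 0.12). OsIAA14 (0.38, limma adjusted p = 0.054) and OsIAA15 (0.21, limma adjusted p = 0.056) were likewise higher in every overexpression library without passing.

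**Figure D3:**
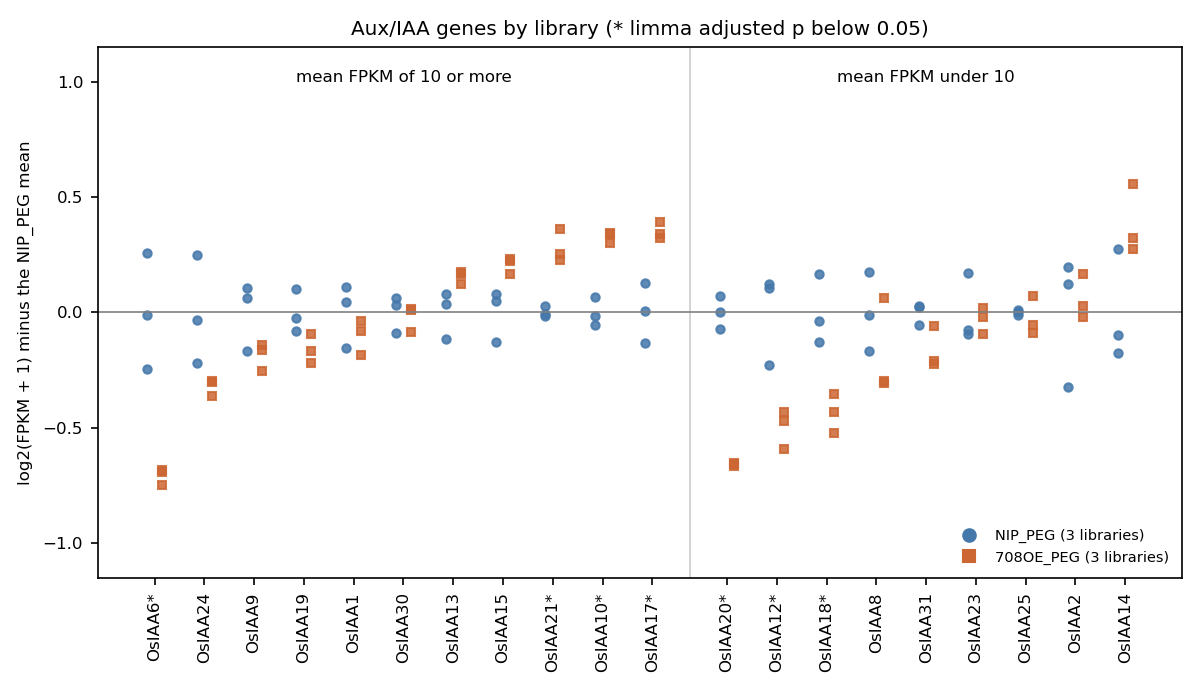
Each tested Aux/IAA gene by library, as log2(FPKM + 1) minus the mean of the 3 wild-type libraries (circles, wild type; squares, overexpression line). Squares lie wholly below the circles for 7 genes, wholly above for 6 and among them for 7. Over all tested genes, 30.7% lay wholly below and 20.0% wholly above.

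Among the other Aux/IAA genes, OsIAA19 and OsIAA31 were lower in every overexpression library and did not pass, with log2 fold changes of -0.16 and -0.17. OsIAA1, OsIAA2, OsIAA8, OsIAA9, OsIAA23, which maintains the root quiescent centre in rice, OsIAA25 and OsIAA30 had overlapping groups, with log2 fold changes from -0.19 to 0.06. The name OsIAA30 is uncertain, since its implied gene span of 2709 bases differs from the 5300 bases in RefSeq. OsIAA4, OsIAA7, OsIAA26 and LOC_Os11g11410 were too low to test, with mean levels of at most 0.717 in either genotype. LOC_Os06g24850 had no read in any library, where a count of 0 allows up to 3 reads. The loci of OsIAA3 and OsIAA16 are not in the list used. The first did not pass, at 27.2 in NIP_PEG and 25.7 in 708OE_PEG, and the second had levels of 0.905, 1.33 and 0.968 against 1.54, 1.73 and 1.44. It reached the FPKM minimum in 1 wild-type library and all 3 overexpression libraries, so it was tested through the group where it is high. Its limma adjusted p of 0.043 did not hold without the minimum or in 5 of 6 fits that left out a library.

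Summed over each family, the ARF level was 309 ± 11.8 FPKM in NIP_PEG and 250 ± 2.29 in 708OE_PEG (SD, n = 3 each), a change of -19.2%. The activators went from 94.9, 79.1 and 88.2 to 62.0, 61.8 and 61.2, a change of -29.4%. The other ARF genes changed by -15.2%, and by -8.71% with OsARF4 left out. The Aux/IAA sum was 516 ± 11.1 and 501 ± 3.62 (SD, n = 3 each), a change of -2.96% that turned to 4.57% with each library scaled to its reads in the table. Under that scaling the ARF sum still changed by -12.96% and the activator sum by -23.9%. The other ARF genes then changed by -8.66%, and by -1.65% without OsARF4, a sum whose groups overlapped. The ratio of the Aux/IAA sum to the ARF sum does not depend on a scaling by 1 factor per library. The ratio was 1.65, 1.71 and 1.65 in the wild-type libraries and 2.01, 1.999 and 2.01 in the overexpression libraries, so it was higher in every overexpression library. It was not computed with the length trend removed. The tested genes differ in median gene span, 2690.5 bases for Aux/IAA and 5990.5 for ARF, and the part of length in the ratio was not tested. No p-value is given for the sums and ratios, which rest on the same gene values.

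**Figure D4:**
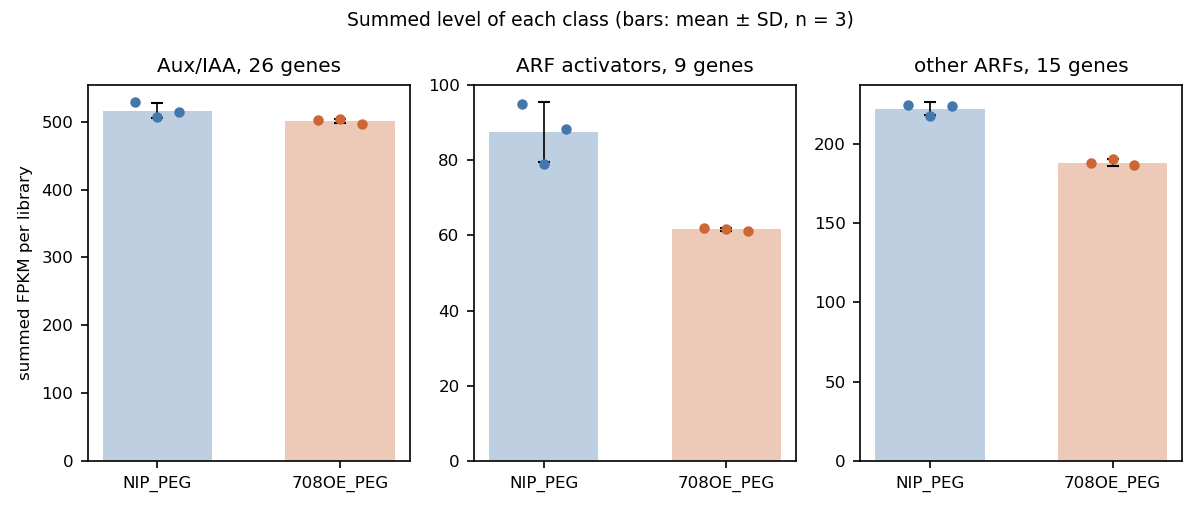
Summed FPKM per library of the Aux/IAA genes, the activator ARFs and the other ARFs (points, libraries; bars, mean with SD, n = 3). The activator sum is lower in every overexpression library, at 61.2 to 62.0 against 79.1 to 94.9, while the Aux/IAA bars differ by -2.96%.

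The members shared features that bear on these levels. Gene spans of the tested ARF genes started at 2670 bases (median 5990.5), with every activator at 5686 or more, whereas the Aux/IAA genes ran from 1275 to 5363 (median 2690.5) and all tested genes had a median of 3256. With a trend on gene length removed from each library, all 6 activators that fell kept their call. In that setting the other ARF genes called lower went from 3 to 1, and all ARF genes called lower from 9 to 7. The median log2 fold change went from -0.16 to -0.07 over the ARF genes and from -0.04 to -0.0012 over all tested genes. Replicates were closer in the overexpression line: the median coefficient of variation over the tested members was 4.70% there and 8.57% in the wild type, against 6.18% and 9.87% over all tested genes. The wild type had the larger value in 31 of the 42 members. The reads counted in the table were 1.05 to 1.07 times the implied library size for NIP_PEG and 0.972 to 0.998 times for 708OE_PEG, which is why scaling to these reads moved all changes upward. Under that scaling the median over all tested genes went from -0.04 to 0.04, with 3682 genes higher and 2079 lower in place of 2654 and 3706.

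Other steps of auxin action were read from lists of genes whose names matched RefSeq. Of the corepressors, 2 of 3 were matched and both fell, against 20.0% lower over all tested genes. OsTPR1/ASPR1 had levels of 37.3, 31.3 and 36.3 in NIP_PEG and 26.3, 27.1 and 26.1 in 708OE_PEG, without overlap (log2 fold change -0.39 ± 0.08, SE, limma adjusted p = 0.0073). OsTPR2/ASPR2 went from 15.2 ± 0.584 to 12.8 ± 0.594 (n = 3 each, ± SD), a change of -0.24 on the log2 scale at a limma adjusted p of 0.025. It lost its call in 3 of the 6 fits that left out a library (limma adjusted p up to 0.101) and in 5 of 11 other settings. Both genes are long, with spans of 9080 bases for OsTPR1/ASPR1 and 9358 for OsTPR2/ASPR2. With the length trend removed, OsTPR1/ASPR1 kept its call (log2 fold change -0.24, limma adjusted p = 0.027). OsTPR2/ASPR2 did not (-0.0955, limma adjusted p = 0.27).

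Among enzymes that conjugate or oxidise auxin, 10 of 14 were matched: none rose, 4 fell, 4 did not pass and 2 were too low to test, against 14.3% higher and 20.0% lower over all tested genes. OsGH3-8, which conjugates auxin to amino acids, had levels of 11.6, 11.8 and 12.4 in NIP_PEG and 6.37, 6.501 and 6.28 in 708OE_PEG. The groups were tight and far apart (log2 fold change -0.81 ± 0.06, SE, limma adjusted p = 9.8e-05). OsDAO, the dioxygenase that oxidises auxin in rice and the highest gene of the list, fell from 50.4 ± 2.76 to 38.2 ± 2.20 (n = 3 each, ± SD), a change of -0.39 on the log2 scale at a limma adjusted p of 0.0047. OsGH3-4 (log2 fold change -0.33, limma adjusted p = 0.018) and OsGH3-1 (-0.36, limma adjusted p = 0.032) fell at low levels. Leaving out a library took their limma adjusted p up to 0.064 and 0.111, and OsGH3-1 passed in 6 of 10 other settings. OsGH3-2 was at 25.5 ± 1.62 and 25.4 ± 1.28 (SD, n = 3 each) and missed the threshold (limma adjusted p = 0.99).

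Of the auxin synthesis genes 2 of 11 were matched. OsTAA1/FIB, a tryptophan aminotransferase, had 2.58 ± 0.387 and 3.29 ± 0.117 (SD, n = 3 each) and missed the threshold (limma adjusted p = 0.059), and OsYUC1 was too low to test. Of 12 listed PIN efflux carriers, 6 loci matched a PIN entry of RefSeq by chromosome and span, some under another PIN number. None of the 6 passed and 4 were too low to test. LOC_Os02g50960 (REH1 in RefSeq), the highest, had 13.6 ± 1.55 and 16.01 ± 0.215 (SD, n = 3 each, limma adjusted p = 0.076). The other tested carrier, LOC_Os06g12610 (PIN1C in RefSeq), had 3.43 ± 0.243 and 2.81 ± 0.0875 (SD, n = 3 each, limma adjusted p = 0.053). LOC_Os02g50960 was higher in every overexpression library and LOC_Os06g12610 was lower in every one.

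Markers of tissues within the seedling were read beside these results. Of 4 listed green-tissue markers, 2 were matched, and PsbS1 and RCA were not. The matched light-harvesting genes Lhcb1 and Lhcb1b both rose, against 14.3% higher over all tested genes. Their summed level was 4278 to 6124 in the wild type and 9237 to 9277 in the overexpression line. Of 9 listed root markers, 4 matched RefSeq by chromosome and span, and 3 by chromosome alone, since they had no read to give a span. None of these 7 was called: 2 missed the threshold and 5 were too low to test. Their sum was 10.1 to 10.8 and 10.1 to 11.2, and those 3, Lsi2, OsNRT2.1 and OsAMT1;2, were listed at 0 in every library. Of 4 markers of dividing cells, PCNA passed as higher (0.41 on the log2 scale, limma adjusted p = 0.0091), 2 did not pass and 1 was too low to test, and their sum was 8.08 to 8.90 and 8.80 to 9.44. The part of these markers' tissues in the Aux/IAA and ARF results was not tested.

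Across other settings, 14 of the 17 members that passed kept their call in every alternative that tested them, and OsIAA21, OsARF18 and OsARF23 did not. The 6 activator calls were among the 14. In the authors' deposited table, the log2 fold change had the same sign for 42 of 42 tested members, and the p-value was below 0.05 for 17 of the 17 that passed here. It was also below 0.05 for 9 tested members that did not pass here. The sources used here do not say whether those p-values were adjusted.

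**Figure D5:**
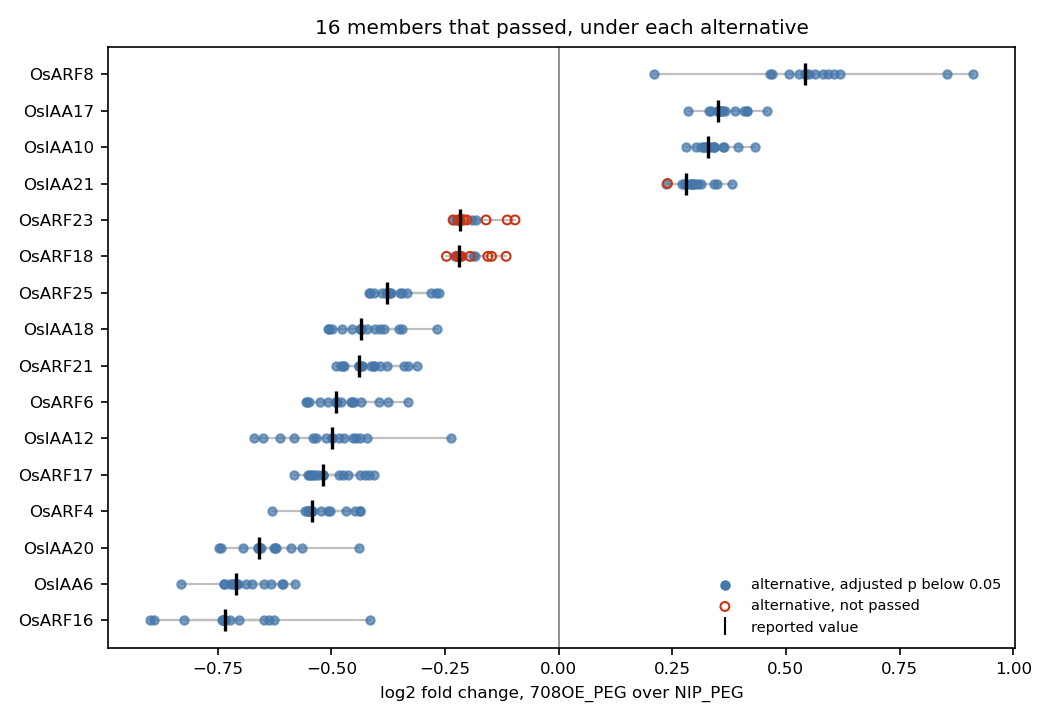
Log2 fold change of 16 members that passed, under each alternative (filled points passed, open points did not; black bars, reported values). None of them crosses 0, the 5 activator ARFs have filled points alone, and open points occur for OsARF18, OsARF23 and OsIAA21.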

How the data were processed

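The authors deposited FPKM values for each library, beside a log2 fold change and a p-value of their own per gene, per the file headers. Oligo(dT)-selected RNA went into a stranded KAPA library kit, per the labels' protocols. HISAT2, featureCounts and DESeq2, with FastQC, cutadapt, SAMtools and deepTools, are named without versions or roles, per the submitters' processing notes. Build, annotation and the use of strand in counting are not given in the sources used, so reads of overlapping or antisense genes may be shared. The 9 samples gave 6 libraries, since each wild-type repeat of 2 lanes has 1 column. The digit in the wild-type column names is unexplained in the sources used.

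Whole reads, library sizes and gene spans were recovered from the FPKM steps (100% of 31263 genes with a read, within 0.02 of a whole read), and read numbers, scaling to the table's reads, voom and the length trend rest on this recovery. Tests used limma 3.58.1 in R 4.3.3 with a mean-variance trend, two-sided, at an adjusted p of 0.05 over all 18569 tested genes. The recovery and the test were also run on simulated reads, drawn with the same spread in both genotypes and with no length trend. The data differ on both points, and the outcome of these runs is not reported here.

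Names were accepted where a RefSeq (ASM3414082v1) alias lay on the same chromosome with a gene span within 1.5-fold, which held for 46 of the 50 members. Markers with no read were kept on chromosome alone. OsARF11 is named from its place in the family list. Genes of the other lists with no matching alias, among them the auxin receptors and influx carriers, are not reported. Every other member that passed, the 3 highest of each family and up to 3 of each other list were named by rule, and the other members are listed for completeness. The counts, medians and sums of the ARF genes and activators include 1 gene that is not reported here by itself. The members and lists were chosen with earlier results of these data known. The span range of 5 to 9 kb was chosen after the values were seen. Whether equal replicate numbers pair the libraries is not known. Correlations between same-number libraries, of deviations from the genotype means, were -0.005, -0.002 and -0.045, which cannot decide this. Alternatives were other pseudocounts (0.1 and 5), filters, scalings, voom on whole reads, removal of the length trend, a replicate block, and each library left out.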

Additional observations from a re-analysis of the deposited data

How the results depend on the processing

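No call changed direction. Aux/IAA genes higher went from 3 to 5 with median-ratio scaling or quantile normalization and to 6 with scaling to the table's reads, and ARF genes higher from 1 to 0 with a mean FPKM of at least 5, a filter that leaves OsARF8 untested. The 3 lower calls outside the activators became 1 under quantile normalization, scaling to the reads in the table, removal of the length trend, 708OE_PEG replicates 1 and 2 (the closest pair) averaged, and the replicate block. Activators lower stayed at 6 in these settings and was 5 with a mean of at least 5, where OsARF16 is untested. Over the table, genes higher were 1592 with a mean of at least 5 against 2654, and genes lower were 2079 with scaling to the table's reads and 2332 with the closest pair averaged against 3706. The median log2 fold change of Aux/IAA genes turned from -0.07 to 0.0228 under scaling to the table's reads. That of ARF genes was -0.21 with a pseudocount of 0.1 or with voom, -0.12 with a pseudocount of 5, -0.30 with a mean of at least 5, -0.13 with median-ratio scaling, -0.0828 scaled to the table's reads and -0.0721 without the length trend. For all tested genes the same settings gave -0.0546 (pseudocount 0.1), -0.0552 (voom), -0.0246 (pseudocount 5), -0.0977 (mean of at least 5), -0.0155 (median-ratio), 0.041 (reads in the table) and -0.0012 (length trend), and no filter gave -0.0059. The cause of these shifts was not tested.

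Leaving out each library in turn gave 2 to 4 Aux/IAA genes higher and 4 to 6 lower, 1 ARF gene higher and 7 to 10 lower, 6 to 7 activators lower and 1 to 4 other ARFs lower. The count of other ARFs was 1 without NIP_PEG replicate 3 or any 1 overexpression replicate. Genes over the table ranged from 1748 to 3078 higher and 1960 to 4098 lower, with 1748 and 1960 both without 708OE_PEG replicate 3. Genes lower were 2213 without NIP_PEG replicate 3, 2195 without 708OE_PEG replicate 1 and 2225 without 708OE_PEG replicate 2. With the replicate block 7 ARF genes were lower, against 9, and 3 and 4 Aux/IAA genes were higher and lower. OsIAA24, OsIAA14 and OsIAA15 were among members just outside the threshold that passed in some settings. The FPKM minimum left 8 of 50 members untested, though OsIAA4, with 20 to 56 reads a library, overlapped tested OsIAA8, with 25 to 82.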
